A study of Mus musculus with 24 samples.

Results

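The Notch pathway genes of brain endothelium described here are 3 receptors (Notch1, Notch2 and Notch4), 4 ligands (Dll1, Dll4, Jag1 and Jag2) and 3 targets (Hes1, Hey1 and Nrarp). They were taken by symbol from the deposited table, which lists 18091 genes. All 10 had a row, and all 10 were among the 12249 genes tested, whose mean normalized count over the 20 libraries was at least 10. A normalized count is the whole number deposited for a gene in a library. Low values are spaced like counts scaled by 1 factor per library and rounded, a reading inferred here from the values.

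RNA came from primary mouse brain microvascular endothelial cells (MBMECs) of wild-type C57B/6J mice, grown as a sealed layer on transwell inserts, so that the blood-facing (apical) and the tissue-facing (basal) side could be treated apart. The 5 groups of 4 libraries were 50 nM sphingosine-1-phosphate (S1P, a lipid mediator) given basally, the same dose given apically, 500 nM of the S1P4 receptor agonist CYM50260 given basally, the same agonist dose given apically, and vehicle. RNA was taken 24 h after treatment. In the series' design, basal S1P opens the barrier and the 3 other treatments tighten it, so the question asked of these genes is whether side and agent move the pathway. The knockout libraries of the series were not used here, since they stand in a table normalized separately.

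Every group shared the same limits as a model. All cells had passed 48 h of puromycin to remove other cell types, each replicate was made from 12 mice, and 3 inserts were pooled for a library. No source used here ties a replicate number to a pool of mice shared between groups, so a p-value speaks only of the variation seen among these libraries, part of which may be technical. In bulk RNA, fewer cells of a type and less RNA per cell cannot be told apart.

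Notch signalling runs between touching cells. A DLL or JAG ligand on a cell's surface binds a Notch receptor on its neighbour, ADAM proteases and then gamma-secretase cut the receptor, and the freed intracellular domain joins the DNA-binding protein RBPJ to switch on HES, HEY and NRARP genes. In growing vessels DLL4 on the leading tip cell restrains sprouting of its neighbours through Notch, and Notch activity upholds arterial identity. NOTCH3 is known chiefly as the receptor of mural cells, the pericytes and smooth muscle cells that wrap the endothelium.

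The libraries held 4.49 to 4.72 M normalized counts each, and 1009 to 1952 genes were at 0. Undoing the scaling factors estimated from low values gave 3.93 to 5.54 M counts before scaling. These need not equal the reads on genes, since abundant genes are compressed in the deposited values. The estimate was 3.93 to 5.15 M in the basal S1P group and 4.69 to 5.54 M in the vehicle group. The 12 endothelial markers summed to 23064 to 27724 normalized counts per library. Pericyte markers (10 of 11 had a row) summed to 280 to 2014 with basal S1P, 870 to 2470 with apical S1P, 265 to 1898 with basal agonist, 369 to 2139 with apical agonist and 289 to 2400 with vehicle. Smooth muscle markers summed to 2575 to 4136, fibroblast markers to 245 to 1142 and microglial markers to 2 to 39. Pericyte RNA was highest in the libraries numbered 1 and lowest in those numbered 4, whichever the treatment. Xist, the noncoding RNA of the inactive X chromosome in female cells, was unlike the other libraries of its replicate number in 4 libraries, which were basal S1P replicate 2, apical S1P replicates 3 and 4, and apical agonist replicate 2. Values over the other 16 libraries are given beside results below; those of the correlations and gene lists were chosen after seeing the data. No member passed the limma test over these 16 either.

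Per exonic base, the pathway was led by the ligand Dll4, the target Nrarp and the receptor Notch4. Dll4 stood at 394 ± 40.8 normalized counts per kb of exon (SD, n = 20 libraries), Nrarp at 376 ± 25.4 and Notch4 at 340 ± 24.6, which put all 3 above the 98th percentile of the genes tested, at 99.1, 98.8 and 98.2. Dll4 exceeded Nrarp in 13 of 20 libraries, and the pair did not differ beyond their spread. Nrarp exceeded Notch4 in 19 of 20 libraries. The most abundant genes of this table are compressed: the highest value was 0.182% of its library, and the top 122 genes together held 7.7% of all counts. The order among the leading 3 and the size of their changes may therefore be understated.

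A middle band followed well below. Jag2 (187 ± 17.6 per kb), Jag1 (184 ± 11.5) and Notch1 (183 ± 15.5) could not be ranked, since Jag2 exceeded Jag1 in 9 of 20 libraries and Jag1 exceeded Notch1 in 9 of 20. The lengths used are unions of all annotated exons, 14232 bases for Notch1, 6965 for Jag2 and 5827 for Jag1. Order between genes depends on that choice. Hes1, a transcriptional repressor, lay at 152 ± 12.7 and exceeded its relative Hey1 (131 ± 22.3) in 17 of 20. Notch2 (28.1 ± 5.21) and Dll1 (26.3 ± 14.5) were the lowest, at percentiles 29.4 and 28, and Notch2 was the higher in only 12 of 20 libraries. The median gene tested had 54.1 per kb.

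**Figure D1:**
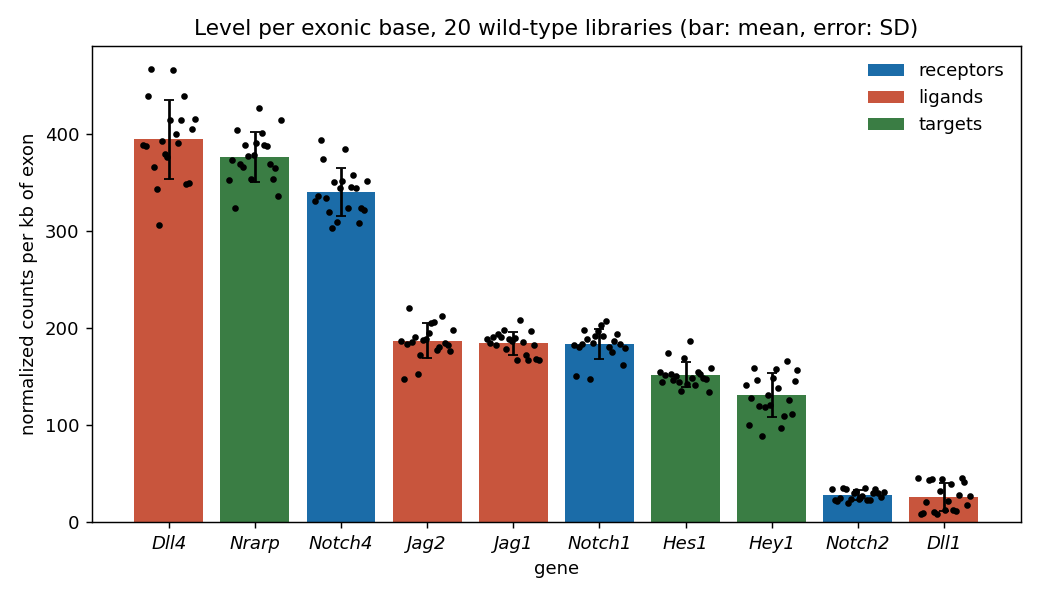
Level of each gene in normalized counts per kb of exon (y axis) for the 10 genes in order of their mean (x axis). Bars are means over 20 wild-type libraries, error bars are SD, points are libraries, and colours mark receptors, ligands and targets. Dll4, Nrarp and Notch4 stand at 340 to 394 on average, and Notch2 and Dll1 below 30.

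Per exonic base, Notch4 was a median of 1.88 times Notch1 (range 1.56 to 2.23 over 20 libraries), and Notch1 was 6.34 times Notch2 (5.27 to 8.42). Such ratios between genes depend on the exonic lengths used, for example 8061 bases for Notch4 and 14232 for Notch1. Among the ligands, Dll4 was 2.1 times Jag1 (1.55 to 2.79) and 2.09 times Jag2 (1.8 to 2.63). Its ratio to Dll1 ranged more widely, with a median of 18.4 and a range of 7.64 to 46. Nrarp, which encodes a small protein that feeds back to lower Notch activity, was a median of 2.5 times Hes1 (2.13 to 2.74) and 2.75 times Hey1 (2.22 to 4.37). The rank order by group mean placed Dll4 above Nrarp in 4 of the groups and Nrarp above Dll4 with apical S1P.

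No member passed the test with any treatment. In the limma test with Benjamini-Hochberg adjustment over all 12249 genes, 0 of 10 members passed an adjusted p under 0.05 in any of 7 comparisons, nor in the F test of any difference among the 5 groups. Across all genes the share called was 0.0245% for basal S1P against vehicle, 0% for apical S1P, basal agonist and apical agonist against vehicle, 0.0245% for basal against apical S1P, 0% for basal against apical agonist, 0.049% for basal S1P against the 3 other treatments, and 0.0245% in the F test, so a count of 0 in 10 is near that of the whole table.

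At an unadjusted limma p under 0.05 the members gave 1 result, Dll4 in basal against apical S1P, where 4.01% of all genes passed. They gave 0 in the other tests, where the share of all genes was 5.22% for basal S1P against vehicle, 0.996% for apical S1P, 0.31% for basal agonist and 1.09% for apical agonist against vehicle, 0.498% between the agonist sides, 5.63% for basal S1P against the 3 other treatments and 1.73% in the F test. In no comparison did a member's groups stand apart without overlap. Of all genes, 2.11% did so for basal S1P, 1.32% for apical S1P, 0.588% for basal agonist and 0.678% for apical agonist against vehicle, 1.4% for basal against apical S1P, 0.433% between the agonist sides and 0.253% for basal S1P against the 3 other treatments.

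**Figure D2:**
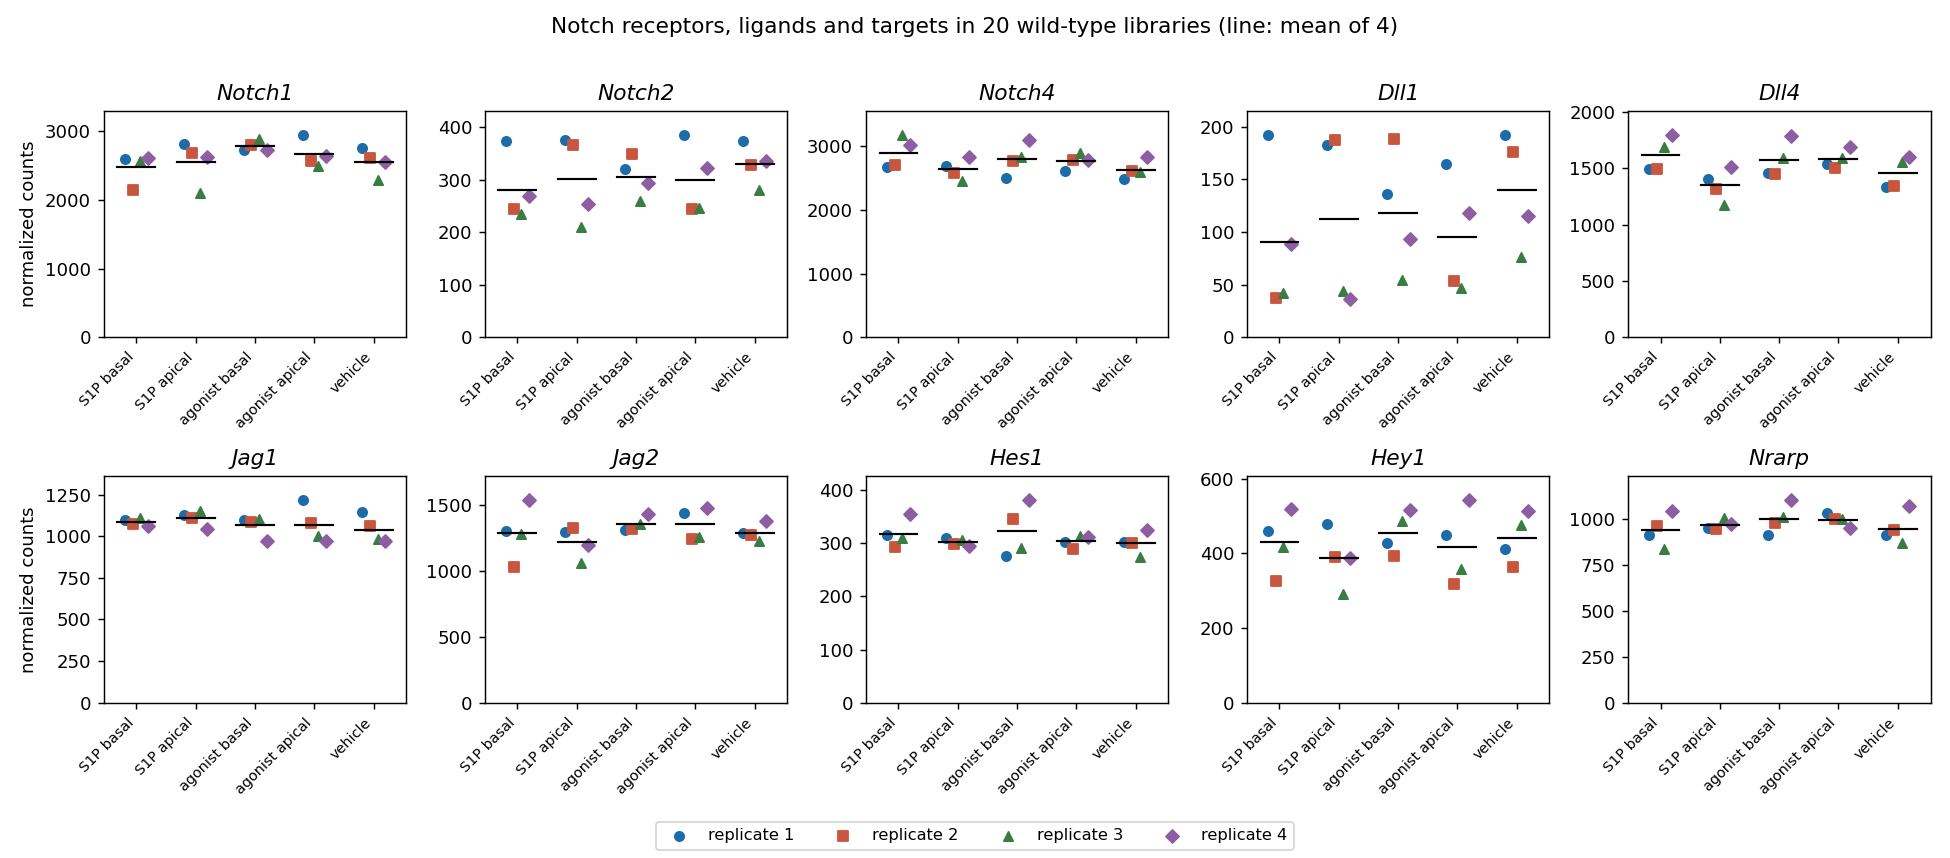
Normalized counts (y axis, from 0) of each gene in every wild-type library by treatment group (x axis). Symbols and colours mark the replicate number and lines the mean of 4 libraries. Groups overlap for every gene, and Dll1 ranges from 36 to 192 with the largest spread for its level.

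Positions below are on mm10, as the deposited table gives them, for the whole gene. Among the receptors, Notch4 (chr17:34564268-34588503, plus strand), whose expression is largely endothelial, had the smallest p. It had 2666, 2704, 3171 and 3014 normalized counts with basal S1P (replicates 1 to 4), against 2484, 2607, 2586 and 2832 with vehicle. Basal S1P was the higher at all 4 replicate numbers, but the groups overlapped. The libraries numbered 2 did not deviate together (correlation 0.03). The means were 2889 ± 244 and 2627 ± 147 (SD, n = 4 each), a log2 change of 0.13 ± 0.07 (SE; 95% interval -0.01 to 0.28; limma adjusted p = 0.756). Without the 4 libraries with unlike Xist it was 0.17 ± 0.08. The other treatments left Notch4 at 2633 ± 164 with apical S1P, 2796 ± 248 with basal agonist and 2761 ± 114 with apical agonist.

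Notch1 (chr2:26457903-26516663, minus strand), the receptor with the widest known role in endothelium, had 2600, 2145, 2572 and 2616 normalized counts with basal S1P, against 2755, 2616, 2298 and 2549 with vehicle. A single library, basal S1P replicate 2, was low, and it is among the 4 with unlike Xist. The log2 change with basal S1P against vehicle was -0.04 with all libraries and 0.03 ± 0.07 without those 4, and apical S1P against vehicle was at -0.01 and 0.11 ± 0.07. With apical S1P Notch1 averaged 2555 ± 315, with basal agonist 2792 ± 74.7, with apical agonist 2665 ± 199 and with vehicle 2554 ± 191. Its log2 change was largest with basal agonist against vehicle, at 0.13 ± 0.09 (limma adjusted p = 0.9998).

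Notch2 (chr3:98013527-98150361, plus strand) averaged below vehicle with every treatment when all 20 libraries were used, within its spread. It averaged 280 ± 64.1 normalized counts with basal S1P, 301 ± 82.7 with apical S1P, 306 ± 37.7 with basal agonist, 300 ± 67.5 with apical agonist and 329 ± 38.3 with vehicle. The log2 changes against vehicle lay between -0.25 and -0.11, each with an SE of 0.19. The direction did not hold throughout once the 4 libraries with unlike Xist were left out: apical S1P against vehicle turned to 0.18 ± 0.19, while basal S1P was at -0.19 ± 0.17 and apical agonist at -0.07 ± 0.17. These comparisons share the vehicle libraries, so their like sign is not 4 separate observations.

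Dll4 (chr2:119325784-119335962, plus strand), the ligand that restrains sprouting, gave the smallest p of any member. It had 1497, 1493, 1689 and 1798 normalized counts with basal S1P, against 1410, 1319, 1180 and 1511 with apical S1P. Basal S1P was the higher at all 4 replicate numbers. The groups overlapped only in that the highest apical library (1511) exceeded the lowest pair of basal ones. Same-numbered deviations of these groups correlated at 0.73, -0.34, 0.03 and 0.20 at numbers 1 to 4, so the numbers are not matched pairs. All but number 1 include a library with unlike Xist. The means were 1619 ± 150 and 1355 ± 141 (SD, n = 4 each), a log2 change of 0.26 ± 0.09 (SE; 95% interval 0.07 to 0.45). The limma p was 0.00956 and the adjusted p 0.984, so the difference did not pass. With a block on replicate number the limma adjusted p was 0.0537, which did not pass either. That block treats the numbers as matched, which these groups did not show throughout. Leaving out a library in turn kept the change between 0.19 (without apical S1P replicate 3) and 0.31 (without apical S1P replicate 4), and it was 0.28 ± 0.11 without the 4 libraries with unlike Xist. Pericyte markers differed in the opposite direction. They summed to 2014, 1557, 998 and 280 with basal S1P and to 2470, 2003, 1651 and 870 with apical S1P. Basal S1P was the lower at each of these unmatched numbers. Their part in the difference was not tested.

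Set beside vehicle (1460 ± 138; 1340, 1344, 1557 and 1600 normalized counts), Dll4 averaged higher with basal S1P and lower with apical S1P, and neither passed. Basal S1P differed from vehicle by 0.15 ± 0.09 on the log2 scale (95% interval -0.04 to 0.34; limma adjusted p = 0.756) and apical S1P by -0.11 ± 0.09 (-0.30 to 0.08; adjusted p = 0.9996). Basal agonist (1574 ± 160) and apical agonist (1581 ± 81.7) lay above vehicle by 0.11 ± 0.09 and 0.12 ± 0.09, and differed from each other by less than their spread (-0.01 ± 0.09, 95% interval -0.20 to 0.18). Between basal S1P and the 3 other treatments together, Dll4 differed by 0.11 ± 0.07 (limma adjusted p = 0.92).

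The group means of the jagged ligands lay close together. Jag1 (chr2:137081456-137116644, minus strand), which shares Notch receptors with DLL4, averaged 1087 ± 21.2 normalized counts with basal S1P, 1108 ± 48.3 with apical S1P, 1066 ± 63.1 with basal agonist, 1068 ± 109 with apical agonist and 1040 ± 80.8 with vehicle. Jag2 (chr12:112907819-112929776, minus strand) averaged 1285 ± 207, 1219 ± 120, 1351 ± 56.2, 1352 ± 122 and 1290 ± 62.8 normalized counts in the same order of groups. The 95% intervals of all 4 comparisons with vehicle lay between 0.927-fold and 1.18-fold for Jag1 and between 0.818-fold and 1.21-fold for Jag2. Leaving out the 4 libraries with unlike Xist turned Jag2 against vehicle from -0.02 to 0.09 ± 0.07 on the log2 scale with basal S1P, and from -0.08 to 0.02 ± 0.08 with apical S1P.

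Dll1 (chr17:15367354-15376872, minus strand), the other delta-like ligand, varied most and was measured least precisely. It had 192, 37, 42 and 89 normalized counts with basal S1P, 182, 187, 44 and 36 with apical S1P, 136, 188, 54 and 93 with basal agonist, 164, 53, 47 and 118 with apical agonist, and 192, 176, 76 and 115 with vehicle. High and low libraries occurred in every group. Basal S1P differed from vehicle by a log2 change of -0.86 ± 0.61 (95% interval -2.13 to 0.42, limma adjusted p = 0.756), so neither a fall to 0.228-fold nor a rise to 1.34-fold lies outside the interval. Without basal S1P replicate 2 the change was -0.54 ± 0.65, and without basal S1P replicate 1 it was -1.32 ± 0.61. Without the 4 libraries with unlike Xist it was -0.54 ± 0.54. Apical S1P against vehicle turned from -0.60 with all libraries to 0.49 ± 0.61 without those 4, and basal against apical S1P was then -1.03 ± 0.64.

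None of the targets passed the test either. Hes1 (chr16:30064384-30067796, plus strand) averaged 318 ± 25.9 normalized counts with basal S1P, 302 ± 7.3 with apical S1P, 323 ± 48.4 with basal agonist, 304 ± 11.7 with apical agonist and 300 ± 20.9 with vehicle. Hey1 (chr3:8663359-8667256, minus strand), a repressor tied to arterial fate, averaged 431 ± 80.4, 386 ± 77.2, 456 ± 55.7, 417 ± 100 and 441 ± 66.8 in the same order. Nrarp (chr2:25180758-25183339, plus strand) had 910, 963, 836 and 1042 normalized counts with basal S1P, against 912, 940, 868 and 1069 with vehicle, and its means were 968 ± 26.4 with apical S1P, 1000 ± 78.6 with basal agonist and 996 ± 34.2 with apical agonist. Over the 4 comparisons with vehicle the 95% intervals spanned 0.887-fold to 1.22-fold for Hes1, 0.674-fold to 1.34-fold for Hey1 and 0.891-fold to 1.17-fold for Nrarp. Over the 16 libraries Hey1 against vehicle turned from -0.04 to 0.09 ± 0.15 on the log2 scale with basal S1P, and from -0.10 to 0.02 ± 0.15 with apical agonist.

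**Figure D3:**
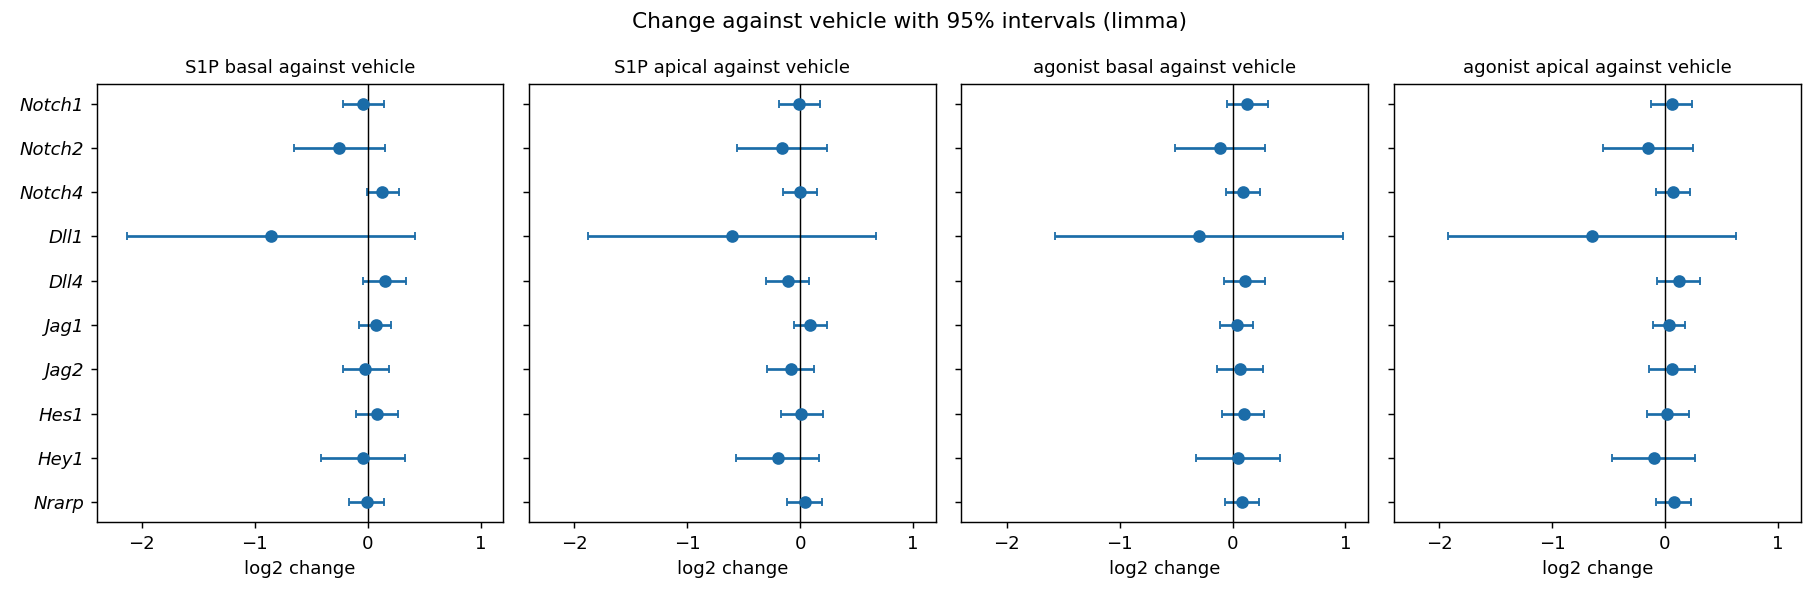
Log2 change against vehicle (x axis) of each gene (y axis) for basal S1P, apical S1P, basal agonist and apical agonist, with 95% intervals from limma (n = 4 libraries a group). Every interval includes 0; Dll1 has the widest, from -2.13 to 0.42 with basal S1P.

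The intervals are on the scale of the deposited values, in which abundant genes are compressed. For Notch4, Jag1 and Nrarp, any change against vehicle beyond 1.22-fold up or 0.891-fold down lay outside all 4 intervals. For Dll4 the outer bounds were log2 changes of -0.30 and 0.34, and for Notch1 0.856-fold and 1.24-fold. Those of Notch2 were 0.638-fold and 1.22-fold. Over all 20 libraries the coefficients of variation were 6.25% for Jag1, 6.76% for Nrarp and 7.23% for Notch4, against 18.5% for Notch2 and 54.9% for Dll1. The median gene tested had 12.4%.

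For 9 of the 10 members, more of the variance lay between replicate numbers than between treatments. For Notch2, 59.3% of the variance of log2(value + 1) lay between replicate numbers and 9.39% between treatment groups. Jag1 had 52.6% and 12.8%, Dll1 50.2% and 11.7%, and Hey1 47.9% and 12%. Dll4 was the exception, with more variance between treatment groups (41.6%) than between replicate numbers (38.8%), and its treatment share stood at percentile 96.9 of the genes tested. The medians over all genes tested were 42.9% and 13.9%. Without the 4 libraries with unlike Xist, Dll4 was no longer the exception, with 79.9% between replicate numbers and 44.6% between treatment groups, while Notch1 had 27.2% and 37.2%. With unequal groups these shares overlap and can sum to over the whole. They describe the libraries and carry no test.

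**Figure D4:**
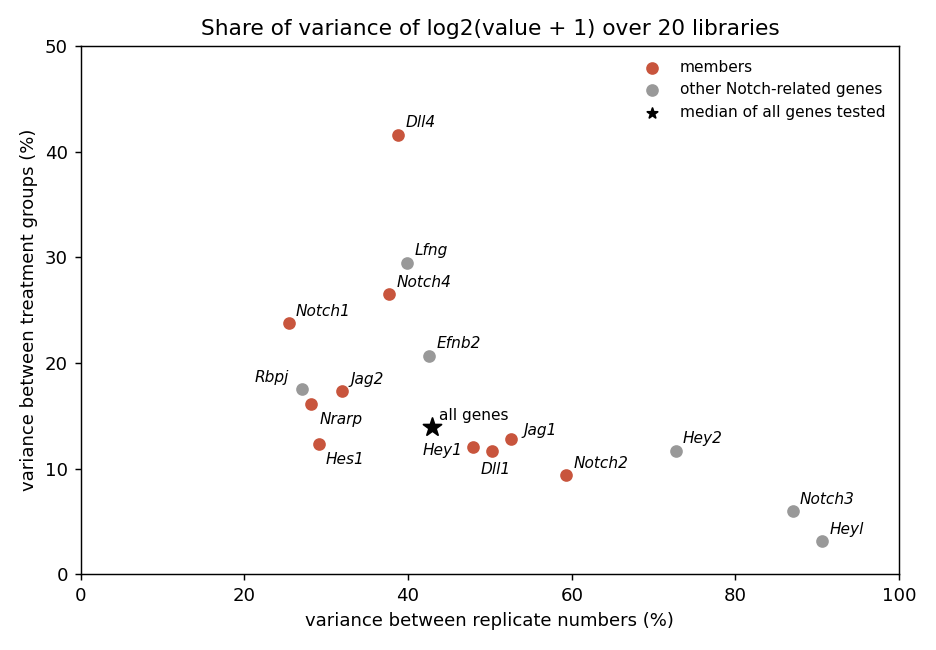
Percent of the variance of log2(value + 1) over 20 libraries that lies between replicate numbers (x axis) and between treatment groups (y axis). Red points are the 10 genes, grey points 6 related genes and the star the median of all genes tested; Dll4 is highest on the y axis, and Heyl and Notch3 lie farthest right.

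Dll1 was low in a set of libraries spread over all treatments. It was at 36 to 76 normalized counts in 8 libraries, which were all 5 numbered 3 and the other 3 with unlike Xist, and at 89 to 192 in the other 12. In those 8 libraries Xist lay at 525 to 1608, while in the other 12 it was 0 to 244 or 2251 to 2555. Notch2 was 209 to 280 in the same 8 and 268 to 385 in the rest, so its values overlapped. Every other member overlapped between these sets as well. The 8 libraries were grouped by Xist after the values were seen and include every treatment, so no test is given. How many of all genes tested divide these libraries in the same way was not counted. The division can therefore not be called particular to Dll1.

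Over all 20 libraries, Notch3 and Heyl, a HEY family repressor that is also expressed in mural cells, followed the replicate number far more closely than any member. Notch3 averaged 633 ± 81.3 normalized counts in the libraries numbered 1, 491 ± 121 in those numbered 2, 262 ± 63.9 in those numbered 3 and 83.8 ± 64.1 in those numbered 4 (SD, n = 5 each). Of its variance over all 20 libraries 87% lay between replicate numbers, and of Heyl's 90.6%. Without the 4 libraries with unlike Xist, members came as high, with 91.8% for Dll1 and 81% for Notch2. The shares of Notch3 and Heyl without those 4 are not given here. Pericyte markers were likewise highest in number 1 and lowest in number 4. Notch1 averaged 2770 ± 127 and 2634 ± 66.8 in the libraries numbered 1 and 4, and Dll4 averaged 1449 ± 77.3 and 1678 ± 124. Neither differed between those numbers as far as Notch3 did. Other members varied more by number. Dll1 averaged 173 ± 23.7 and 90.2 ± 32.9 in numbers 1 and 4, with 52.6 ± 13.8 in number 3. Notch2 averaged 366 ± 25.5 and 295 ± 34.7 in numbers 1 and 4. Between basal S1P and vehicle Notch3 did not pass the test (-0.45 ± 0.93 on the log2 scale, limma adjusted p = 0.886).

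**Figure D5:**
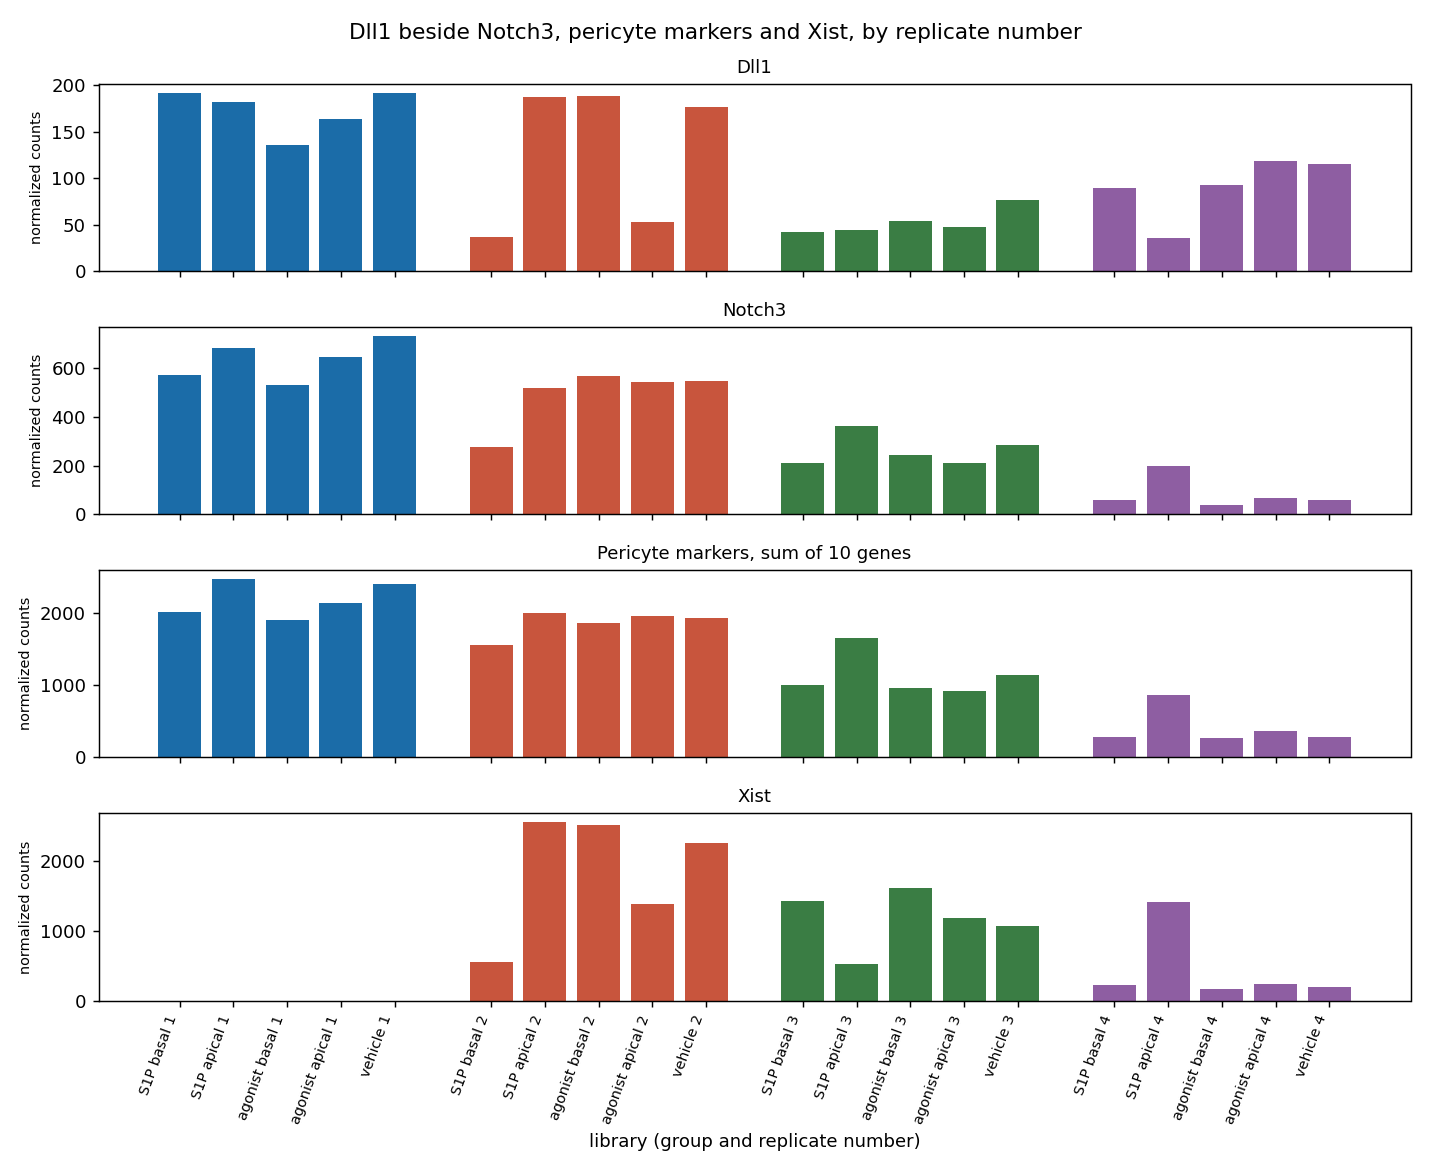
Normalized counts (y axis) of Dll1, Notch3, the summed pericyte markers and Xist in the 20 libraries (x axis), ordered by replicate number and then group. Dll1 is low in 8 libraries spread over all treatments, and Notch3 and the pericyte sum are highest in the libraries numbered 1 and lowest in those numbered 4.

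Nor did any gene of the machinery around the members pass. Of 55 further pathway genes (other receptors and ligands, proteases and gamma-secretase, glycosyltransferases, the nuclear complex, endocytic and inhibitory factors and other HES and HEY genes), 48 had a row and 45 were tested, and 0 passed the limma adjusted p in any comparison. At an unadjusted limma p under 0.05 there were 0 of the 45 in each comparison with vehicle and between the agonist sides. There was 1 between basal and apical S1P, where 4.01% of all genes passed. There were 2 for basal S1P against the 3 other treatments, where 5.63% of all genes passed. With basal S1P against vehicle, 12 of the 45 lay higher and 33 lower, with a median log2 change of -0.06 beside 0.00 for all genes. The counts were 20 higher and 25 lower with apical S1P, 24 and 21 with basal agonist, and 25 and 20 with apical agonist. Over the 16 libraries they were 17 higher and 28 lower with basal S1P, and 28 and 17 with apical S1P. The members themselves were 4 higher and 6 lower with basal S1P, with a median of -0.02, and 7 higher and 3 lower, with a median of 0.08, without those 4 libraries.

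Lfng, a fringe glycosyltransferase that shifts receptors towards DLL ligands, gave the smallest of these p-values. It had 206, 153, 130 and 160 normalized counts with basal S1P, against 250, 205, 199 and 172 with apical S1P. Basal S1P was the lower at every replicate number, although the groups overlapped and the numbers are not matched pairs between them. The means were 162 ± 31.9 and 206 ± 32.4, a log2 change of -0.35 ± 0.16 (limma adjusted p = 0.9992), and against the 3 other treatments -0.34 ± 0.13 (adjusted p = 0.749). Over the 16 libraries these were -0.48 ± 0.20 and -0.41 ± 0.15, and neither passed. Cir1, a corepressor that works with RBPJ, differed from the same 3 treatments by -0.44 ± 0.18 (29 ± 7.79 against 39.2 ± 7.06, adjusted p = 0.792), and Neurl1b, an E3 ligase, by -0.55 ± 0.31 (adjusted p = 0.92). None passed.

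Furin, the protease that processes newly made Notch, averaged 1388 ± 50.2 normalized counts with basal S1P, against 1296 ± 48.2 with apical S1P and 1279 ± 55.0 with vehicle. Its basal S1P libraries lay above all of apical S1P and above all of vehicle, by log2 changes of 0.10 ± 0.06 (limma adjusted p = 0.9992) and 0.12 ± 0.06 (adjusted p = 0.756), where 1.4% and 2.11% of all genes had groups apart. Mfng, another fringe enzyme, averaged 593 ± 10.9 with basal agonist, against 562 ± 4.55 with vehicle, without overlap (0.08 ± 0.05, adjusted p = 0.9998), as did 0.588% of genes. Neither passed.

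The remaining genes with the 3 smallest p in each comparison were all short of the threshold, at limma adjusted p from 0.756 to 0.9999. With basal S1P against vehicle they were Cir1 (-0.44 ± 0.22) and Hes6 (0.26 ± 0.14), and with apical S1P against vehicle the ubiquitin ligase gene Mib2 (-0.19 ± 0.12), Hes6 (0.19 ± 0.14) and the corepressor gene Ctbp1 (0.09 ± 0.07), all on the log2 scale. Basal agonist against vehicle gave Furin (0.09 ± 0.06) and Dtx4 (-0.61 ± 0.51). Apical agonist against vehicle gave Ctbp1 (0.12 ± 0.07), the histone deacetylase gene Hdac1 (0.10 ± 0.06) and Hey2 (-0.37 ± 0.28). Between the agonist sides they were Hdac1, Ctbp1 and the endocytic adaptor gene Epn1, each at -0.07 with SEs of 0.06 to 0.07, and between basal and apical S1P Neurl1b stood beside Lfng and Furin (-0.66 ± 0.38). Rbpj, the DNA-binding core of the pathway, had 23.7 ± 2.01 normalized counts per kb over a union of exons of 12750 bases. It averaged 284 ± 13 normalized counts with basal S1P, against 307 ± 15.1 with vehicle (-0.11 ± 0.09, adjusted p = 0.756).

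Upstream sequence is shown for Nrarp, the most abundant target, for Dll4, the member with the smallest p, and for Lfng, the wider gene with the smallest p. Each is the 250 bases before the RefSeq start site on GRCm38.p6, the assembly called mm10, and all 3 genes read along the plus strand. The windows are chr2:25180508-25180757 for Nrarp, chr2:119325534-119325783 for Dll4 and chr5:140607091-140607340 for Lfng. Capitals mark the core letters bound by RBPJ, TGGGAA, read on either strand (TTCCCA on the printed strand), and the E-box CACGTG, a palindrome bound by many basic helix-loop-helix factors.
Nrarp: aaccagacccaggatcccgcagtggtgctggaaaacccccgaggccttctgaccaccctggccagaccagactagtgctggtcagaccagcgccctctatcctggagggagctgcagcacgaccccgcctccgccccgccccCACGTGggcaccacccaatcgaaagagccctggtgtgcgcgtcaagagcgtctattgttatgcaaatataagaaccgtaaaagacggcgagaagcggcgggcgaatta
Dll4: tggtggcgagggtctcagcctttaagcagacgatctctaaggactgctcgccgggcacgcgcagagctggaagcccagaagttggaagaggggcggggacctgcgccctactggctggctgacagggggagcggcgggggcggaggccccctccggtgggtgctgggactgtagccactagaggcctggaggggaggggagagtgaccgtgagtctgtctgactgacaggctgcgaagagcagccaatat
Lfng: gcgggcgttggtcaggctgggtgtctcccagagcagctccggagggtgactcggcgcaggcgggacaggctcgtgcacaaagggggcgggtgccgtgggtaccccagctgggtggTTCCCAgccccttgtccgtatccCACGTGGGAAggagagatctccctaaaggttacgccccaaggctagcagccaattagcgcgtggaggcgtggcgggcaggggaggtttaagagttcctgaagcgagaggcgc

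Of the 10 members, 8 had a RefSeq upstream window; Hes1 and Hey1 are named only. TGGGAA was in none of these 8, while 21.6% of all 32851 windows held it on at least 1 strand. CACGTG was in 1 of the 8, Nrarp, from 108 bases before its start site, and in 6.02% of all windows. Lfng held TGGGAA at 135 bases before its start site on the minus strand and at 108 on the plus strand, where it shares letters with a CACGTG that begins at 112. These matches describe letters in this window and say nothing of binding.

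After removing the mean of each replicate number, the log2 values of Notch2 and Dll1 had a Pearson r of 0.89 over 20 libraries, Notch1 and Jag2 0.79, and Notch4 and Dll4 0.78. Hey1 went with Jag2 (0.73) and Notch2 (0.71), Jag1 had no r above 0.25 with any other member, and Nrarp none above 0.39. Several of these values rested on the libraries with unlike Xist, whose levels of Dll1 in particular differ from those of the same number. Over the other 16 libraries Notch2 and Dll1 had an r of 0.84, Notch1 and Jag2 0.69, and Notch4 and Dll4 0.67, but Hey1 had 0.26 with Jag2 and 0.44 with Notch2. Jag1 then had 0.80 with Jag2 and 0.66 with Notch1, Nrarp had 0.56 with Notch1, and Notch4 had 0.82 with Hes1, against 0.49 over all 20. The libraries share depth, cell makeup and treatment, so these values are descriptions.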

How the data were processed

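The wild-type table the authors deposited gives a whole-number signal for each gene, called a normalized count here. Its low values are spaced like counts scaled by a factor of their library and then rounded. Such a factor does not account for the compression of abundant genes, whose origin no source used here states. The submitters' processing notes list these tools without their roles: DESeq2 1.26.0, featureCounts 1.6.5 (Subread), STAR 2.7.3a, Trimmomatic 0.38 and FastQC, with the genome build mm10. No source used here states the strand setting. A count before scaling was worth an estimated 0.8288 to 1.1684 normalized counts over the 20 libraries. Because of the rounding, reads could not be recovered and no count model was run.

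Genes with a mean of at least 10 were tested. R 4.3.3 with limma 3.58.1 fitted log2(value + 1) to the 5 group means in 1 model of all 20 libraries, with the prior variance following the mean level. Benjamini-Hochberg adjustment ran over all 12249 genes, and calls were made under 0.05. Fold changes are on that scale, which understates low genes. The fit was also run on simulated data in which libraries varied independently. That check does not cover variation shared by replicate number. Levels per kb divide by the exonic length of GENCODE M21, the union of all annotated exons of a gene. A gene whose expressed transcript is shorter than that union reads too low per kb. Counting intervals are not given, because the reads are unknown.

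The members and lists were chosen with earlier results of these data known. Named genes were the members, Notch3, Rbpj, Heyl, Hey2, Lfng, Efnb2, any called gene, the 3 wider pathway genes with the smallest p in each comparison, and the 3 genes most like each member. Cir1, Neurl1b and others come from that rule.

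Replicate numbers come from the labels. Same-numbered libraries deviated together for apical S1P, basal agonist and apical agonist with vehicle and between the agonist sides (lowest correlation 0.38), and a block on the number changed no call there. The weakest of these involved libraries with unlike Xist. They were 0.38 and 0.40 for apical S1P with vehicle at numbers 3 and 4. At number 2 they were 0.43 for apical agonist with vehicle and 0.42 between the agonist sides. For basal S1P with vehicle the correlations at numbers 1 to 4 were 0.81, 0.03, 0.58 and 0.68, so only number 2 failed, where the basal S1P library is among those with unlike Xist. With apical S1P they were 0.73, -0.34, 0.03 and 0.20. Alternatives were another pseudocount (5), no filter or a mean of at least 50, the replicate block, only the compared libraries, another scaling, a constant prior variance, and leaving out libraries. Correlations and list counts without the 4 libraries with unlike Xist were added after seeing the data.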

Additional observations from a re-analysis of the deposited data

Results flagged for a closer look

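In 50 sets of 4 libraries (10 genes in 5 groups), 2 single libraries stood far from the other 3, where chance flags about 1 in 20. For Notch1, basal S1P replicate 2 had 2145 normalized counts, against 2572 to 2616 in the others, a gap of 0.907 of the group's whole range. It is among the 4 libraries with unlike Xist. For Jag1, basal agonist replicate 4 had 972, against 1085 to 1106, a gap of 0.843 of the range.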

How the results depend on the processing

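Over 70 member results (10 genes in 7 comparisons) and 1200 alternative values, no member crossed the threshold and none with a change at least as large as its SE (23 of 70) turned its sign; smaller changes turned it in 47 alternatives. The closest was Dll4 in basal against apical S1P with the replicate block, at a limma adjusted p of 0.0537; without the block the smallest for any member was 0.432. Counts over all genes did depend on the fit. With the replicate block, 47 genes were called for basal S1P against vehicle, 83 for basal against apical S1P, 137 for basal S1P against the 3 other treatments and 18 in the F test, against 3, 3, 6 and 3; not every number paired the libraries in the first 2 comparisons. With only the compared libraries they were 0, 1 and 3. Without the 4 libraries with unlike Xist, basal against apical S1P gave 0 and the F test 1. Leaving out a library in turn gave 2 to 4, 1 to 3, 3 to 9 and 2 to 3, and 0 in the 4 other comparisons. The cause of these changes was not tested. Depth, compression of abundant genes, 4 libraries a group and the wide spread of Dll1 limit what could be detected.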

Other observations

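Genes known to mark the vessel states that Notch controls were read from the same fit, and 0 of 8 arterial, 5 venous and 6 tip cell genes passed the limma adjusted p in any comparison. At an unadjusted limma p under 0.05 there were 2 arterial genes in basal S1P against the 3 other treatments, where 5.63% of all genes passed. There was 1 in apical S1P against vehicle, where 0.996% of all genes passed. The same tip cell gene, the potassium channel subunit gene Kcne3, passed that p in basal S1P against vehicle, against apical S1P and against the 3 other treatments. The shares of all genes there were 5.22%, 4.01% and 5.63%, and these comparisons share the basal S1P libraries. There were 0 venous genes. The tip cell genes all lay higher with basal S1P than with vehicle, 6 of 6, with a median log2 change of 0.19, 6 of 6 did so with either side of the agonist, and 4 of 6 with apical S1P. Of all genes 6128 of 12249 lay higher with basal S1P than with vehicle. The 12 endothelial markers leaned the same way with every treatment, with 11 higher with basal S1P, 10 with apical S1P, 12 with basal agonist and 11 with apical agonist. Without the 4 libraries with unlike Xist, chosen after seeing the data, 5 of 6 tip cell genes lay higher with basal S1P (median 0.10) and 0 of 6 with apical S1P. Kcne3 had the smallest p of the tip cell genes, with a log2 change of 0.55 ± 0.20 with basal S1P against vehicle (limma adjusted p = 0.756). Of the 8 arterial genes, 2 were higher than vehicle with basal S1P, 1 with apical S1P, 5 with basal agonist and 1 with apical agonist. Without the 4 libraries with unlike Xist the counts were 3, 6, 5 and 5. Gja5, a gap junction gene, lay lower with basal S1P than with the 3 other treatments by -0.19 ± 0.07 (limma adjusted p = 0.764). Efnb2, an arterial ephrin ligand, had 222 ± 30.7 normalized counts per kb and differed between basal and apical S1P by 0.24 ± 0.13 (adjusted p = 0.9992). Between the agonist sides, 8 of 8 arterial genes lay higher with basal agonist and 6 of 6 tip cell genes lower, while 11 of 12 endothelial markers lay lower and all genes divided into 6157 higher and 6091 lower. Without the same 4 libraries the arterial count was 7 of 8. These comparisons share libraries, so counts across them are not separate observations.

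The genes whose log2 values ran most like a member over the 20 libraries, after removing replicate-number means, are given as descriptions, and those that moved most without the 4 libraries with unlike Xist follow. Dll4 went with Ptpn12 (Pearson r = 0.95), Bcl6b (0.94) and Vash1 (0.93), Notch1 with Iqsec1 (0.93), Shank3 (0.91) and Cbfa2t3 (0.91), and Notch4 with Plxnd1 (0.90), Ncl (0.86) and Cgnl1 (0.86). Hey1 went with Unc5b (0.92), Ccn3 (0.88) and Efnb2 (0.87), Jag2 with Ptprm (0.95), Cic (0.92) and Per1 (0.92), and Notch2 with Endov (0.92), Dll1 (0.89) and Irx3 (0.87). For Dll1 they were Trp53bp1 (0.95), Zfp407 (0.94) and 4632415L05Rik (0.93). Lower values were found for Nrarp with Fzd6 (0.83), Kdr (0.82) and Stab1 (0.81), for Jag1 with Uhrf1 (0.82), Hmgb2 (0.76) and Dcbld2 (0.75), and for Hes1 with 2700038G22Rik (0.75), Ube4b (0.74) and Dhx9 (0.74). Over the 16 libraries left, Hey1 had 0.35 with Ccn3 and 0.47 with Efnb2, Dll1 had 0.62 with Trp53bp1, and Jag2 had 0.66 with Per1.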
